A study of Mus musculus with 6 samples.

Results

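This comparison sets embryoid bodies of the Tet triple-knockout line TKO_26 against embryoid bodies of the wild-type (WT) line, gene by gene. Its members are 4 of the 6 arrays of the series, the 2 whose titles name TKO#26 stem cells and the 2 whose titles name wild-type stem cells. All came from mouse embryonic stem cells of a mixed 129/C57BL6 background, and the TKO cells lack Tet1, Tet2 and Tet3. The cells were aggregated in hanging drops for 2 days without LIF, the factor that keeps mouse stem cells self-renewing, and the aggregates then stayed in suspension for another 8 days without LIF, so that RNA was taken after 10 days in all. The series calls the 2 arrays of a line technical replicas and does not say whether they share RNA. Each line is therefore 1 biological sample, and every p-value below compares these lines over the spread between arrays, not the genotypes. The other 2 arrays are of TKO_29, an independent TKO line grown in the same way, and they enter the fit of the spread and a short comparison near the end.

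TET enzymes oxidise 5-methylcytosine in DNA to 5-hydroxymethylcytosine and further, which starts the removal of methylation from promoters and enhancers. Embryoid bodies are aggregates in which stem cells leave pluripotency and form derivatives of the 3 germ layers and of the extraembryonic tissues, among them beating cardiac muscle, primitive red cells, vessels and yolk sac-like endoderm. DNA methylation is also part of the silencing of germline and early-embryo genes and of the control of imprinted genes, which are expressed from a single parental allele.

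Signals are given as log2 of the processed spot intensity minus the 75th percentile, on the same array, of those probes that all 6 arrays detected well above background, so that 0 is the level of a fairly bright detected probe. Of the spots, 42.8% and 51.1% were well above background on the WT arrays and 38.4% and 49.6% on the TKO_26 arrays. TKO_26 replicate 1 was the noisier array: spots of 1 probe varied by 9.18% (median coefficient of variation), against 4.31% to 5.29% on the others, and its lowest signal well above background lay at -6.24, against -8.02 on TKO_26 replicate 2. Over 13261 genes the standard deviation of the difference between arrays was 0.30 within WT and 0.38 within TKO_26, and that of the difference between the means of the lines was 0.74. All 6 arrays shared 1 slide. The first number in the name of each scan, read here as a position on the slide, was 1 for WT and 2 for TKO_26 and TKO_29. Position and genotype therefore cannot be told apart. A gene "rose" or "fell" where the limma adjusted p was under 0.05 and the difference at least 2-fold. A fold is written "at least" where a line had fewer than 2 arrays well above background and its level is only bounded.

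The targeted genes were read on 7 probes. On the brighter of the Tet1 probes the signal was -0.93 and -1.21 on the WT arrays and -2.01 and -2.17 on the TKO_26 arrays. Both TKO_26 arrays lay below both WT arrays, and Tet1 fell 2.03-fold (log2 difference -1.02 ± 0.15, SE, 2 arrays per line; adjusted p = 0.0083). The dimmer Tet1 probe differed by -0.08. Tet2 had signals of -2.84 and -2.59 in WT and of -3.85 and -3.77 in TKO_26, and fell 2.13-fold (-1.09 ± 0.15; adjusted p = 0.0066), with -1.25 on its other probe. Tet3 gave readings that differed by probe. The brightest probe stood at -5.87 and -6.20 in WT and at -4.53 and -5.45 in TKO_26, a difference of 1.05 ± 0.35 that did not pass (adjusted p = 0.086). This difference was 0.59 without TKO_26 replicate 1 and 1.51 without TKO_26 replicate 2. The other Tet3 probes lay lower in TKO_26 by -2.60 and -1.26 and were not well above background on either TKO_26 array. The first of these decreases is only bounded, at -0.75, and the second probe was well above background on only 1 WT array. The position of these probes against the deletions is not stated in the labels, and only a probe inside a deletion can check the genotype. Both calls lie at the edge of the 2-fold threshold. That of Tet1 ended without WT replicate 1 or TKO_26 replicate 2, with scaling over all probes, quantile normalisation, the deposited matrix, normexp, the mean over probes and no filter. That of Tet2 ended without WT replicate 2, with the deposited matrix and with no filter.

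Of 17926 genes and unnamed features that passed the filter on dim probes, 2512 (14.0%) were called. In TKO_26, 856 (4.78%) rose and 1656 (9.24%) fell, and 601 and 1386 of these carried a gene symbol. The counts of the gene lists below are to be read beside these shares. Most of the large changes were decreases: 508 genes fell and 133 rose at least 4-fold, and 90 fell and 4 rose at least 16-fold, where a gene below background in one line counts at its bound. Decreases included many genes that TKO_26 arrays hardly registered, since 303 of the 1656 were well above background on no TKO_26 array and 488 on 1 of them. The bound lay under 2-fold for 234 of the decreases and for 14 of the increases. Over all tested genes the median log2 difference was -0.04. The count of called genes was 1530 without WT replicate 1 and 3443 without TKO_26 replicate 2, that of increases 506 and 1469, and that of decreases 1024 without WT replicate 1.

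**Figure D1:**
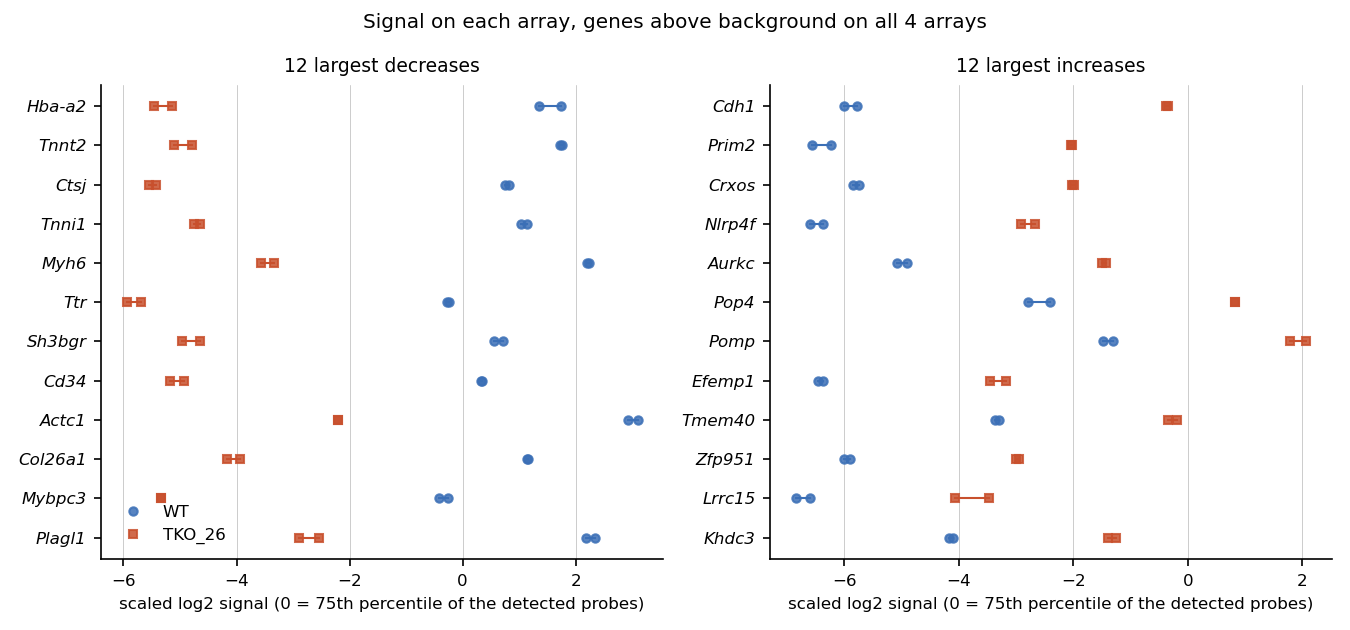
Scaled log2 signal on each of the 2 WT arrays (circles) and the 2 TKO_26 arrays (squares) for the 12 largest decreases and the 12 largest increases among called genes well above background on all 4 arrays, a line joining the arrays of 1 line. The arrays of a line lie close together beside the gap between the lines, which runs from 31.5-fold (Plagl1) to 114-fold (Hba-a2) in the decreases and from 7.02-fold (Khdc3) to 45.8-fold (Cdh1) in the increases.

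Most heart muscle genes fell. Tnnt2, cardiac troponin T of the thin filament, had signals of 1.73 and 1.76 in WT and of -5.10 and -4.78 in TKO_26. The lines were far apart on every array, and Tnnt2 fell 103-fold (-6.68 ± 0.14, SE; adjusted p = 1.25e-04). Myh6, the heavy chain of atrial and embryonic heart myosin, went from 2.24 and 2.21 to -3.57 and -3.35 and fell 51.2-fold (-5.68 ± 0.13; adjusted p = 1.25e-04). Actc1, cardiac actin, was among the brighter genes of WT at 3.09 and 2.92 and read -2.20 on both TKO_26 arrays, a 36.9-fold decrease. Tnni1, the slow troponin I of the embryonic heart, fell 55.2-fold, and Mybpc3, myosin binding protein C, fell 31.9-fold. Myl7, the atrial light chain, was well above background on 1 TKO_26 array and fell at least 183-fold, and Myl2, the ventricular light chain, fell at least 55.6-fold. Of 18 sarcomere genes on the array, all of which passed the filter, 16 fell and 0 rose. Their measured differences were -7.76 to -2.03, with a median over the 18 of -4.48. Only 12 of the 18 were measured on all 4 arrays, the others having passed the filter through 1 line only. With bounds where they apply, the median was -4.07. Tpm1 and Tnni3 did not pass, at -0.57 and -0.87. The summed signal of the list, on the linear scale with that 75th percentile as 1, was 51.1 and 61.6 on the WT arrays and 10.8 and 11.8 on the TKO_26 arrays. In bulk RNA, fewer cells of a type and less RNA per cell cannot be told apart, here and below.

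The transcription factors of the heart moved the same way, though not all of them. Hand2, a factor of the heart fields and second heart field derivatives, stood at -0.53 and -0.62 in WT and at -7.02 and -7.08 in TKO_26, and fell at least 67.9-fold. Its relative Hand1 went from -1.19 and -1.49 to -4.79 and -5.49 and fell 13.9-fold (-3.80 ± 0.27; adjusted p = 9.85e-04). Nkx2-5, an early cardiac homeobox factor, had -1.68 and -1.91 against -4.54 and -4.72 and fell 7.12-fold, and the zinc finger factor Gata4 fell 5.76-fold. Of 13 cardiac factors on the array, all tested, 8 fell and 0 rose, with a median of -2.36. Of the 13, 10 were measured on all 4 arrays, and with bounds where they apply the median was -2.28. Genes of excitation and hormone secretion were dimmer. Of 11 on the array only 5 passed the filter, and they fell: Kcnj5, an atrial potassium channel subunit (at least 13.9-fold), Nppa, atrial natriuretic peptide (at least 11.6-fold), Ryr2, the calcium release channel (at least 4.12-fold), Nppb, the B-type peptide (3.21-fold), and Atp2a2, the calcium pump, with a difference of -1.10. Only 2 of these 5 were measured on all 4 arrays, the others having passed the filter through WT. The count was 3 without WT replicate 1, and the call of Nppb was among those lost. The calcium regulators Pln, Slc8a1 and Casq2 and the pacemaker channel gene Hcn4 passed the filter in neither line.

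Most globin and red cell genes fell, and Hbb-bh1 had the largest bound of all named genes. Hbb-bh1, the embryonic beta-like globin of primitive red cells, was one of the brightest genes of WT at 2.67 and 2.62 and was not well above background on either TKO_26 array, where it read -8.09 and -8.75. This was a decrease of at least 875-fold (measured log2 difference -11.06 ± 0.27; adjusted p = 1.25e-04). Hbb-y and Hba-x, its beta- and alpha-like partners, stood at 0.64 and 0.36 and at -0.04 and -0.32 in WT, were likewise not registered in TKO_26, and fell at least 199-fold and at least 124-fold. Hba-a2, an alpha globin also made by definitive red cells, was measured on all 4 arrays at 1.73 and 1.34 in WT and at -5.15 and -5.45 in TKO_26 and fell 114-fold (-6.84 ± 0.20; adjusted p = 1.98e-04). Of 12 globin and red cell genes on the array 10 passed the filter and 9 fell. Only 3 of them were measured on all 4 arrays, and 2 of those fell. Among progenitor genes, Lyl1, a helix-loop-helix factor of blood, went from -1.07 and -1.10 to below background and fell at least 65.4-fold. Cd34, a sialomucin of blood progenitors and vessels, went from 0.34 and 0.33 to -4.93 and -5.17 and fell 41.8-fold, and Lmo2, a bridging factor of the same complexes, fell 11.8-fold. Tal1, the partner of Lmo2, fell at least 20.4-fold. In all 8 of 14 progenitor genes on the array fell and 0 rose, 11 having passed the filter, and the count was 5 without WT replicate 1 and 4 with signal demanded on all 4 arrays. Of 12 macrophage genes on the array only 4 passed the filter. Mrc1, the mannose receptor, fell at least 10.9-fold, a call lost without either WT array, and Csf1r, the receptor of macrophage growth factor, went from -1.54 and -1.46 to -2.78 and -2.64 and fell 2.31-fold, whereas another of its probes differed by 0.05. The complement genes C1qa, C1qb and C1qc and the leukocyte markers Ptprc and Spi1 were too dim in both lines.

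Vessel genes fell with them. Icam2, an adhesion molecule of endothelium, stood at 0.62 and 0.78 in WT and was not well above background in TKO_26, at least 228-fold lower. Cd93, a surface glycoprotein, went from 0.27 and 0.28 to -7.04 and -7.07 and fell at least 122-fold, and Cdh5, the cadherin of endothelial junctions, went from -0.79 and -1.07 to -6.87 and -6.97 and fell at least 51.0-fold. Clec1b, a C-type lectin receptor that is in none of the vessel lists and is not counted here as a vessel gene, fell at least 75.1-fold from -0.94 and -0.86. Of 17 endothelial surface genes on the array, 15 passed the filter and 13 fell. Only 5 were measured on all 4 arrays, of which 4 fell. Sox18 and Sox7, factors of vessel specification, fell at least 37.4-fold and at least 17.9-fold, the latter call being lost without either WT array, and Fli1, an ETS factor, fell at least 13.8-fold. Of 12 endothelial factors on the array 8 fell and 0 rose, and 3 fell with signal demanded on all 4 arrays. Among 16 growth factor receptors and ligands on the array, of which 15 were tested, 11 fell and 0 rose, and 7 fell with signal demanded on all 4 arrays. Tie1 and Robo4, receptors of vessels, fell at least 28.4-fold and at least 21.5-fold, the ligand Angpt1 at least 8.96-fold, and Acvrl1, a receptor of the BMP type, from -2.36 and -2.47 to -5.48 and -5.58, or 8.70-fold (-3.12 ± 0.11; adjusted p = 2.71e-04). The probes of Kdr, the main VEGF receptor, named after its values were seen, disagreed. The probe with the higher mean signal read -1.92 and -2.53 in WT and -1.79 and -2.27 in TKO_26, so that the lines overlapped, at a difference of 0.19 ± 0.28 (adjusted p = 0.65). The other probe read 0.03 and 0.02 in WT and -5.78 and -5.92 in TKO_26, 58.5-fold lower.

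Placental hormone and protease genes had few readable members in TKO_26. Ctsj, a cathepsin of the placenta, was measured on all arrays at 0.82 and 0.75 in WT and at -5.54 and -5.43 in TKO_26 and fell 77.3-fold (-6.27 ± 0.11; adjusted p = 1.25e-04). The prolactin-family hormones Prl7d1 (0.52 and 0.73 in WT, -7.23 and -6.59 in TKO_26), Prl3b1 and Prl4a1 fell at least 131-fold, 103-fold and 55.5-fold. Of 15 placental hormone and cathepsin genes on the array 10 passed the filter and 8 fell, only 2 of the 10 being measured on all 4 arrays, with a summed signal of 5.99 and 6.22 on the WT arrays against 0.0812 and 0.0946 on the TKO_26 arrays. Trophoblast factors were less uniform: of 15 on the array, all tested, 6 fell, 1 rose and 8 were not called. Cdx2, a factor of early trophoblast and of posterior mesoderm, fell at least 6.98-fold from -3.13 and -3.86, Elf5, a factor of trophoblast stem cells, at least 4.94-fold, and Plac1, a placental membrane protein, 4.53-fold. The Plac1 call rested on TKO_26 arrays that read -4.32 and -2.80 and ended when any 1 of the WT or TKO_29 arrays was dropped. Hand1 and Bmp4 are also in this list.

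Yolk sac and endoderm genes also fell. Ttr, the carrier of thyroid hormone and an early product of visceral endoderm, read -0.27 and -0.24 in WT and -5.94 and -5.69 in TKO_26, a 47.2-fold decrease (-5.56 ± 0.13; adjusted p = 1.25e-04). Rbp4, the plasma carrier of retinol, went from 0.85 and 0.90 to -3.23 and -3.21 and fell 17.1-fold, and the lipid carrier Apom fell 12.2-fold. Afp, alpha-fetoprotein, was not well above background in TKO_26 and fell at least 11.4-fold from -3.60 and -3.63, a call lost without WT replicate 1. Of 14 serum protein genes on the array 12 passed the filter and 9 fell, while 3 were not called, and 4 fell with signal demanded on all 4 arrays. The liver product Alb was too dim in both lines. Cubn, which forms the cubilin receptor of visceral endoderm with the product of Amn, fell at least 29.6-fold, and Amn fell 6.98-fold. Hnf4a, a nuclear receptor that drives many endoderm genes, had -1.75 and -1.72 against -5.32 and -5.10 and fell 11.1-fold (-3.48 ± 0.18; adjusted p = 5.29e-04). Across 18 endoderm factors and receptors on the array 8 fell, 0 rose and 9 were not called, with a median of -0.57 over 17 tested. Of 15 coagulation genes on the array only 3 fell, Fgb, the fibrinogen beta chain (at least 18.3-fold), Habp2 (at least 8.16-fold) and Plg, plasminogen (bound 1.30-fold). None of these was well above background on a TKO_26 array. The count was 1 without WT replicate 1, and the Plg call also ended on dropping WT replicate 2 or any 1 TKO_29 array. Among 12 genes of a list of basement membrane and parietal endoderm genes 5 fell. Lama1, a laminin chain of basement membrane, went from 0.89 and 0.95 to -1.44 and -1.38 and fell 5.02-fold. Srgn, a proteoglycan core, fell 8.65-fold.

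Mesenchymal genes were split between those that fell and those that did not pass. Twist2, a helix-loop-helix factor of mesenchyme, read -1.51 and -1.92 in WT and -5.49 and -5.71 in TKO_26 and fell 14.7-fold (-3.88 ± 0.18; adjusted p = 4.04e-04). The receptor Pdgfrb went from -1.14 and -1.53 to -4.36 and -4.88 and fell 9.73-fold, Snai2, a repressor of epithelial genes, fell 7.92-fold, and Fbn1, fibrillin of microfibrils, fell 6.60-fold. Col26a1, a collagen outside the list, fell 36.9-fold. Of 25 mesenchyme and fibroblast genes on the array, which feeder fibroblasts would also express, 15 fell, 0 rose and 9 were not called, and the summed signal was 24.0 and 29.98 in WT against 13.05 and 15.1 in TKO_26. The part of any feeder cells in this was not tested. Cdh2, N-cadherin, named after its values were seen, went from 1.61 and 1.51 to -0.28 and -0.32 and fell 3.62-fold on one probe, with -1.80 on the other. In the smooth muscle list 4 of 11 genes on the array fell (2 with signal demanded on all 4 arrays), Myocd, the coactivator of smooth and cardiac muscle genes (19.4-fold), Actg2 (at least 10.1-fold), Synpo2 (at least 8.17-fold, with TKO_26 arrays at -6.73 and -10.24) and Acta2, smooth muscle actin, from 3.48 and 2.76 to 1.18 and 0.92, or 4.198-fold. The Synpo2 call ended when any 1 of the WT or TKO_29 arrays was dropped. Of 12 neural crest genes on the array 8 were tested and 4 fell, among them Ednrb (at least 4.42-fold), Ets1 (4.33-fold) and Sox9 (3.02-fold).

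Hox genes, which set position along the body axis, were mostly dark in both lines. Of 25 on the array only 9 passed the filter, 1 of them on all 4 arrays, and the 6 that fell, none of them measured on all 4, were of the Hoxb cluster. Hoxb4 read -2.78 and -2.90 in WT and -6.28 and -5.94 in TKO_26 and fell at least 9.53-fold, and Hoxb2 read -4.0 and -3.54 against -8.03 and -7.35 and fell at least 8.17-fold. Hoxb3 and Hoxb5 had no TKO_26 array well above background and bounds of 4.28-fold and 3.41-fold. The number of Hox genes that fell was 3 without WT replicate 1 and 3 without WT replicate 2.

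Imprinted genes of both lists fell in part. Plagl1, a zinc finger factor of fetal growth, read 2.33 and 2.18 in WT and -2.55 and -2.90 in TKO_26 and fell 31.5-fold (-4.98 ± 0.16; adjusted p = 2.27e-04), with -5.05 on another probe well above background on all 4 arrays. Dlk1, a Notch ligand homologue, went from 2.59 on both WT arrays to -0.55 and -0.61 and fell 8.98-fold. Impact, a translational regulator, fell 7.95-fold and Nnat, a small membrane proteolipid, 5.11-fold. In the paternally expressed list 8 of 18 genes on the array fell (50% of the 16 tested), 1 rose (6.25%) and 7 were not called. Over all tested genes 9.24% fell and 4.78% rose. Of 11 genes on the array in the maternally expressed list, which also holds the paternally expressed RNA Kcnq1ot1, 2 (18.2%) fell and 0 rose. These were Cdkn1c, an inhibitor of the cell cycle, from 3.74 and 3.04 to 1.84 and 1.90, or 2.88-fold, and Igf2r, the receptor that clears IGF2, from 0.99 and 1.15 to -0.42 and -0.39, or 2.77-fold. The Cdkn1c call was lost when any 1 of the 4 arrays was left out. A difference between the lists was not tested.

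Some ligands and targets of the BMP, Notch and Wnt pathways, which pattern the embryo, fell. Bmp4, a ligand that induces mesoderm, read 0.87 and 0.59 in WT and -1.04 and -1.30 in TKO_26 and fell 3.72-fold (-1.90 ± 0.16; adjusted p = 0.00165). The targets Smad6 and Id2 fell 3.53-fold and 3.00-fold. In all 6 of 18 BMP genes on the array fell and 1 rose, 37.5% and 6.25% of the 16 tested. Over all tested genes 9.24% fell and 4.78% rose. Among 18 Notch genes on the array 7 fell (41.2% of the 17 tested) and 0 rose. Hey1, a target, went from -0.35 and -0.37 to -1.99 and -2.20 and fell 3.32-fold, and the endothelial receptor Notch4 fell at least 7.47-fold, on TKO_26 arrays that read -7.14 and -5.17, a call lost without either WT array. The Notch count was 4 without WT replicate 1 and with signal demanded on all 4 arrays, and 3 with normexp background correction. Of 20 Wnt targets and inhibitors on the array 5 fell and 1 rose, 26.3% and 5.26% of the 19 tested, and 3 fell without WT replicate 1. Sfrp5, a secreted inhibitor, fell 5.04-fold from 0.37 and 0.18 to -1.94 and -2.18, and Sfrp4, of the same family, rose at least 7.78-fold. In the retinoic acid list 3 of 15 genes on the array fell and 2 rose, 21.4% and 14.3% of the 14 tested. Cyp26b1, which breaks retinoic acid down, fell 6.24-fold, the receptor Rarb 3.43-fold and Aldh1a2, which makes it, 2.60-fold, a call lost without WT replicate 1. In the Nodal list (18 genes on the array, 17 tested) and the FGF list (18 and 16) 1 gene rose and 1 fell in each, shares near or below the 4.78% and 9.24% of all tested genes. In the Nodal list these were Gdf3 (2.22-fold higher) and the coreceptor gene Cfc1 (2.29-fold lower), and in the FGF list Spry2, a feedback inhibitor (2.75-fold higher), and the receptor Fgfr4 (4.30-fold lower). Streak genes went both ways: T, or brachyury, rose 2.21-fold from -5.04 and -5.16 to -3.98 and -3.93, Gsc rose 2.63-fold, and the mesoderm factors Mesp1 and Snai1 fell at least 3.74-fold and 2.37-fold.

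The largest increase measured on all arrays was that of Cdh1, which encodes E-cadherin, the adhesion molecule of epithelia and of stem cell colonies. It read -5.77 and -6.00 in WT and -0.39 and -0.35 in TKO_26. No array of one line came near the other, and Cdh1 rose 45.8-fold (5.52 ± 0.12; adjusted p = 1.25e-04). Cdh1 had 1 probe. Most other epithelial genes were not called. Of 20 on the array 19 were tested, of which 2 rose, 0 fell and 17 were not called. The share that rose lay above the 4.78% of all tested genes. The second gene was Tjp3, a tight junction protein, from -0.06 and -0.19 to 1.13 and 0.94, or 2.23-fold. The median over the 19 was 0.15, against -0.04 over all tested genes. With no fold threshold 5 epithelial genes rose and 1 fell.

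Genes that stem cells and early embryos express rose in part. Nanog, a factor of the pluripotent state, read -3.34 and -2.94 in WT and -0.63 and -1.07 in TKO_26 and rose 4.89-fold on one probe (2.29 ± 0.22; adjusted p = 0.00253), while its other probe differed by 0.18. Prdm14, a repressor of differentiation, went from -4.36 and -4.46 to -2.52 and -2.39 and rose 3.88-fold, Klf4 rose 2.46-fold and the nuclear receptor Nr5a2 2.29-fold. Sox2 and Pou5f1 are described because of their role, after their values were seen. Sox2 rose 2.06-fold, a call lost without WT replicate 1 and without TKO_26 replicate 2, and Pou5f1 read -0.01 and 0.10 in WT and 0.12 and 0.40 in TKO_26, a difference of 0.22 that did not pass (adjusted p = 0.30). Of 18 pluripotency factors, all tested, 7 rose, 0 fell and 11 were not called, with a median of 0.81. Among 14 further stem cell markers 6 rose and 0 fell. Dppa3, also known as Stella, went from -3.54 and -3.35 to -0.74 and -0.98 and rose 6.003-fold (2.59 ± 0.14; adjusted p = 5.97e-04), Tcl1, an AKT coactivator, rose 4.54-fold, and Fbxo15 rose 3.13-fold. No filter on dim probes left 4 of the pluripotency calls and 3 of the stem cell marker calls.

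Oocyte, 2-cell stage and germline genes rose in part as well. Nlrp4f, of an oocyte gene family, was measured on all arrays at -6.60 and -6.37 in WT and -2.91 and -2.67 in TKO_26 and rose 12.99-fold (3.70 ± 0.14; adjusted p = 2.98e-04). Obox6, an oocyte homeobox gene, and the paralogs Pramel6 and Pramel7 were not well above background in WT and rose at least 6.92-fold, 5.11-fold and 5.20-fold. Pramel6 and Pramel7 are paralogs on the same chromosome, and their probes may share signal. Of 18 genes of these families on the array 10 passed the filter, 8 rose and 1 fell, and of the 3 measured on all 4 arrays 2 rose. In the germline list 7 of 23 genes on the array rose and 3 fell, 14 having been tested. Stra8, a gene of meiotic entry that responds to retinoic acid, rose at least 6.66-fold to -4.85 and -4.79, the kinase gene Stk31 at least 3.76-fold, and Ddx4, the germ cell helicase, 3.81-fold from -4.88 and -5.36 to -3.23 and -3.14. All 3 genes that fell were of the X-linked Rhox homeobox cluster, Rhox6 from 2.20 and 2.35 to -0.16 and 0.13, or 4.89-fold. Without WT replicate 1, with normexp and with signal demanded on all 4 arrays, 4 germline genes rose.

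Other large increases were mostly outside the lists. Prim2, the large subunit of DNA primase, read -6.23 and -6.55 in WT and -2.03 and -2.04 in TKO_26 and rose 20.5-fold. It was 1 of 3 replication genes that rose, of 29 on the array (10.3%), while 0 fell. The median of these 29 was 0.37. Over all tested genes 4.78% rose and the median was -0.04. The other 2 were Pold1 and Mcm3, whose calls both ended when TKO_26 replicate 1 or any 1 of the WT arrays was dropped. Crxos, a homeobox gene of early embryos, rose 13.8-fold and Aurkc, a kinase of meiotic cells, 11.5-fold, from -5.08 and -4.90 to -1.5 and -1.44, with 3.28 on its other probe. Pop4, a subunit of RNase P, rose 10.7-fold, and Pomp, a chaperone of proteasome assembly, 10.0-fold on one probe and 1.20-fold on the other. Zfp874a, a zinc finger gene, rose at least 24.0-fold from below background to -3.04 and -2.90, Spic, an ETS factor, at least 20.4-fold and Crisp3, a secreted protein, at least 14.97-fold. Khdc3, a maternal-effect gene of the oocyte, rose 7.02-fold from -4.11 and -4.17 to -1.39 and -1.26.

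Few genes of growth or stress were called. By limma 0 of 13 tested mitosis genes and 0 of 18 tested p53 and stress genes passed in either direction, while 6 and 4 had an unadjusted p under 0.05. The largest differences were 0.77 for Top2a (adjusted p = 0.0318, under 2-fold) and -0.84 for Atf3 (adjusted p = 0.028, under 2-fold). Of 24 glycolysis and hypoxia genes 2 (8.33%) rose, against 4.78% of all tested genes. These were Ankrd37 (3.33-fold) and Pdk1 (2.14-fold), the latter call being lost without WT replicate 1. In the DNA methylation list 2 of 17 genes on the array rose, 12.5% of the 16 tested, and the other 14 tested were not called. The deaminase gene Apobec1 went from -5.37 and -5.73 to -3.95 and -4.13 and rose 2.85-fold. Gadd45b rose 2.01-fold, a call lost without WT replicate 1 and without TKO_26 replicate 1. Among 20 neural genes on the array 11 passed the filter, and 3 of these (27.3%) rose, among them Pax3 3.96-fold and Sox3 2.27-fold. Tubb3, a neuronal tubulin, fell 3.06-fold. The Sox3 and Tubb3 calls were both lost without WT replicate 1 and without TKO_26 replicate 1, that of Sox3 also without WT replicate 2 and that of Tubb3 without TKO_26 replicate 2, and 5 neural genes rose without TKO_26 replicate 2. The neural factors Pax6 and Neurod1 were too dim in both lines.

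**Figure D2:**
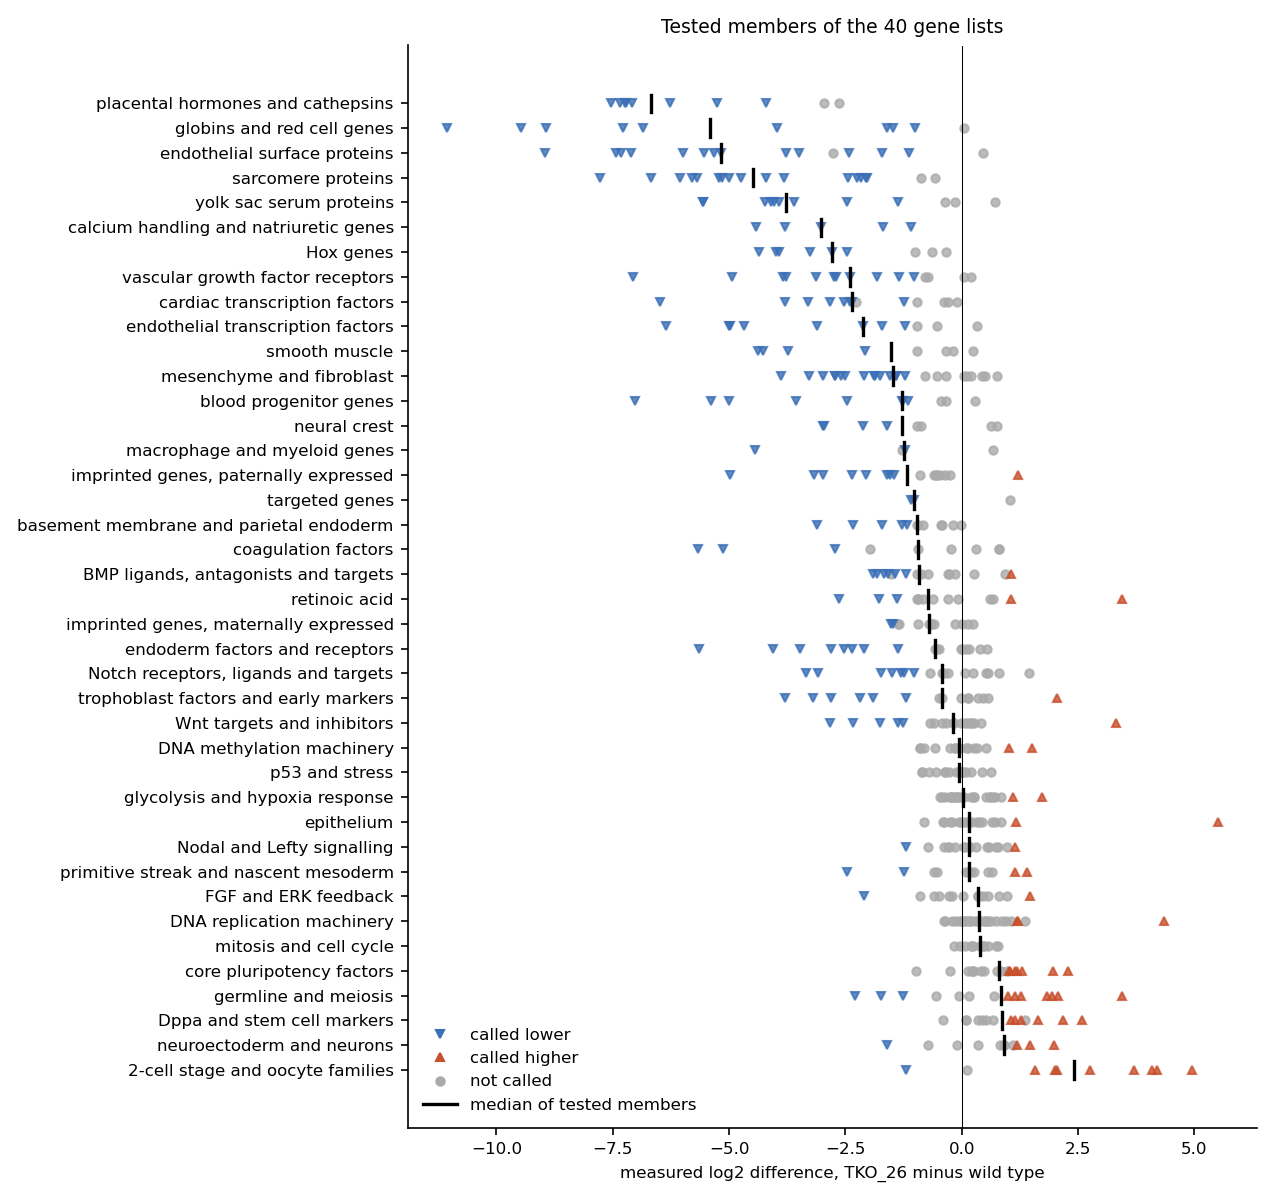
Measured log2 difference, TKO_26 minus WT, of each tested member of the 40 gene lists, ordered by the median of the list (black bar), with genes called lower (blue), called higher (orange) and not called (grey). Members below background in one line are drawn at the measured value, not at the bound. Medians run from -6.68 for placental hormones and cathepsins to 2.41 for the 2-cell stage and oocyte families.

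Promoter sequence was set beside these changes because TET enzymes and DNA methylation act on CpG dinucleotides. RefSeq windows of 300 bases on GRCm38.p6, from 250 bases before to 50 after the start of a gene, were matched by gene ID, and 8235 of 13016 tested genes with a symbol had exactly 1 window. The examples below are from genes that fell with few CpGs (Hba-x, chr11:32276350-32276649, plus strand, 2 CpG; Myh6, chr14:54966558-54966857, minus strand, 2 CpG) and with many (Aldh1a2, chr9:71215539-71215838, plus strand, 50 CpG), and from genes that rose with few (Nlrp4f, chr13:65205667-65205966, minus strand, 2 CpG) and with many (Klf4, chr4:55532426-55532725, minus strand, 40 CpG). Each is written 5′ to 3′ on the strand of its gene, with every CG in capitals.
Hba-x: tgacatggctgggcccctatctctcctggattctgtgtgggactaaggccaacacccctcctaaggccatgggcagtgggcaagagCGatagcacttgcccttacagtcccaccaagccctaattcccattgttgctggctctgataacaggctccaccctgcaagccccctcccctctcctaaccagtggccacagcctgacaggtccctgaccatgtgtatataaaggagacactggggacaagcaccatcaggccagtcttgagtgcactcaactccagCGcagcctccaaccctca
Myh6: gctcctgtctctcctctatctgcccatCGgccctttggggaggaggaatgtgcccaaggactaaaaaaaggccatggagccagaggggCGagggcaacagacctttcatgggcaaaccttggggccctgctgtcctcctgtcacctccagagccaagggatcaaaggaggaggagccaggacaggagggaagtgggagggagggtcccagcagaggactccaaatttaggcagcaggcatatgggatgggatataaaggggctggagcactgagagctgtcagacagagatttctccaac
Aldh1a2: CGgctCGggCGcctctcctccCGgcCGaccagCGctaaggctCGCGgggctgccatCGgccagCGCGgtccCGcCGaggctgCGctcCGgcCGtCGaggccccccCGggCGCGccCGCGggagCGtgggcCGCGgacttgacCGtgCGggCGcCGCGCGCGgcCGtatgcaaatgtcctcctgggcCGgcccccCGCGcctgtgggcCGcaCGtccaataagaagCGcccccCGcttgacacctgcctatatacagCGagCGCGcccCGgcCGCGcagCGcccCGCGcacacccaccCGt
Nlrp4f: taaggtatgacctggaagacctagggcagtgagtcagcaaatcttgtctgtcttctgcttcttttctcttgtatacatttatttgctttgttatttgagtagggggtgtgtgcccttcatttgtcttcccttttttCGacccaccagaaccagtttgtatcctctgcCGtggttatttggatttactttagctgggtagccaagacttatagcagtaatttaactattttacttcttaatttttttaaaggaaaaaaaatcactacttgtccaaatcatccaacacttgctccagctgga
Klf4: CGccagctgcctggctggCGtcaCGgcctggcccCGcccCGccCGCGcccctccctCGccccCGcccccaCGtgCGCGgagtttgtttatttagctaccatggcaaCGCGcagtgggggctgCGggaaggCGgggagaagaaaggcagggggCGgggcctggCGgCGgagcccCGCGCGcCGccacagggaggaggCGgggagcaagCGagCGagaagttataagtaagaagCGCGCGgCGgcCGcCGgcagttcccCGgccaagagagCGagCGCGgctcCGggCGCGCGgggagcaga

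The examples stand for a difference in frequency. The 822 genes that fell and had a window held a median of 14 CpGs (quartiles 6 and 26) and the 357 that rose a median of 13 (5 and 24), against 21 in the 7056 that were not called. A window with at least 50% G and C and an observed-to-expected CpG ratio of at least 0.6 was counted as CpG-rich. Such windows made up 45.1% of the genes that fell, 43.4% of those that rose and 72.3% of those not called. Read the other way, 17.3% of genes without a CpG-rich window fell and 7.74% rose, against 6.60% and 2.76% of genes with one. Among genes well above background on all 4 arrays the shares were 9.62% against 4.81% in decreases and 6.87% against 2.52% in increases. Genes without a CpG-rich window were dimmer, with a median WT signal of -3.10 against -1.52, and the part of signal level in the difference was not tested. Among called members of the lists, 10 sarcomere genes with a window had a median of 3.5 CpGs, 7 globin and red cell genes 4, 6 oocyte and 2-cell genes 3 and 3 pluripotency factors 32. The motif AGATAA, searched on both strands, was in 9.49% of the windows of genes that fell, 9.80% of those that rose and 6.13% of all tested genes, and in 11.5% of all 22862 windows. For AGATAA the shares of the genes that fell and of those that rose lay close together. TATAAA was in 10.9% of the windows of genes that fell, 11.2% of those that rose and 7.53% of all tested genes. For CACGTG, where the directions lay further apart, these shares were 6.69%, 12.3% and 10.1%. Differences in motif shares were not tested.

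**Figure D3:**
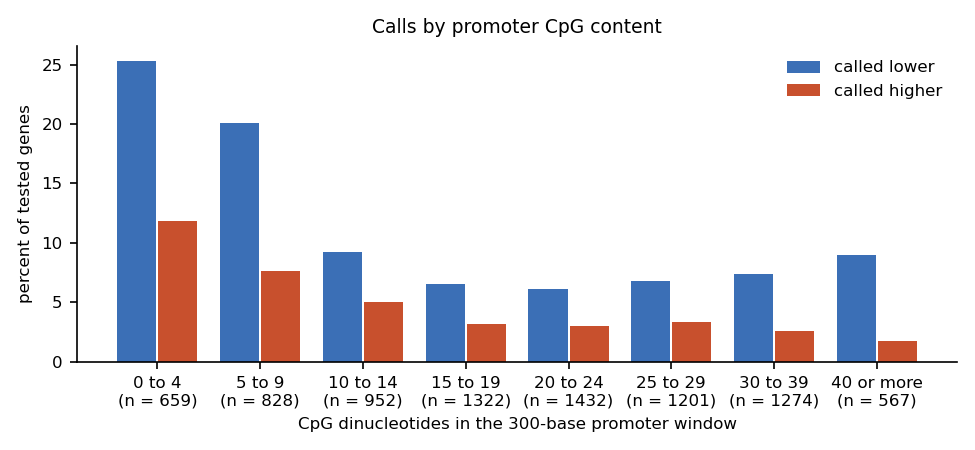
Percent of tested genes called lower (blue) and called higher (orange) in TKO_26, by the number of CpG dinucleotides in the 300-base promoter window, with the number of genes under each pair of bars. Of genes with 0 to 4 CpGs 25.3% fell and 11.8% rose, against 8.99% and 1.76% of genes with 40 or more; among genes well above background on all 4 arrays these were 11.1% and 11.6% against 6.04% and 1.70%.

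Chromosome 8 stood apart from the others. Of 640 genes of chromosome 8 with a symbol and signal well above background on all 4 arrays, 77.5% lay above 0, with a median log2 difference of 0.43, or 1.35-fold. The median was 0.47 on TKO_26 replicate 1 and 0.42 on replicate 2, each set against the WT mean. When the genes of each autosome and the X were cut into 5 blocks by their order, the medians of the chromosome 8 blocks were 0.39 to 0.59, and those of the 95 blocks of other chromosomes were -0.21 to 0.11. Of 694 tested genes of chromosome 8, 84 (12.1%) rose, against 4.62% of all tested genes with a symbol, and 41 (5.91%) fell, against 10.6%. Cdh1 lies on this chromosome, as do Ankrd37 and the decreased genes Hand2, Lyl1, Cdh5, Col4a1 and Tubb3. The median of chromosome 8 stayed 0.39 to 0.46 above that of all genes under each of the scalings, filters and left-out arrays tried. In TKO_29, which shares the WT arrays, it was 0.41. The Y-linked genes Ddx3y and Eif2s3y, chosen after their values were seen, also differed between the lines. Ddx3y read -4.56 and -4.57 in WT and -1.76 and -1.75 in TKO_26, and rose 7.01-fold (2.81 ± 0.12; adjusted p = 3.40e-04), and Eif2s3y rose 4.85-fold. The part of chromosome 8 in the values of its genes was not tested.

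**Figure D4:**
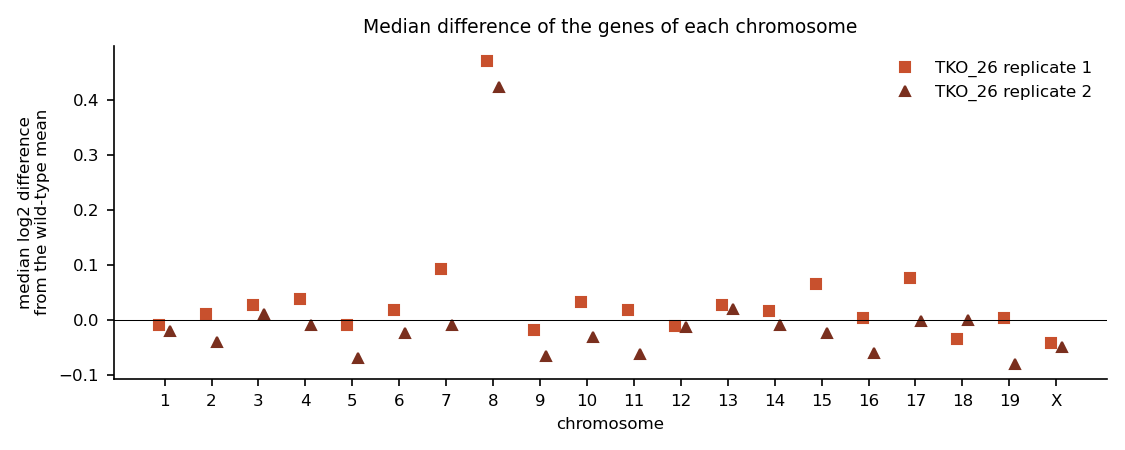
Median log2 difference from the WT mean over the genes of each chromosome, for TKO_26 replicate 1 (squares) and replicate 2 (triangles), genes with a symbol and well above background on all 4 arrays. Chromosome 8 lies at 0.47 and 0.42 and the other autosomes and the X near 0; the Y, with 2 tested genes, is not drawn.

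The independent line TKO_29, set against the same WT arrays, had 1247 genes (6.96%) higher and 2400 (13.4%) lower than WT. Between TKO_26 and TKO_29 in the same fit 371 genes and features (2.07%) were called by limma, 319 (1.78%) higher in TKO_26 and 52 (0.290%) lower. Of the 319, 288 were not called between TKO_26 and WT, and 172 were noncoding probes named only by position, of which 1399 were among the 17926 tested. Syt10, a synaptotagmin, read -0.19 and -1.04 in WT, 0.35 and -0.79 in TKO_26 and -4.91 and -5.36 in TKO_29, so that TKO_26 and WT overlapped and TKO_29 lay apart. A histone gene, H2bc18, read -0.06 and -0.68 in WT, -0.14 and -0.78 in TKO_26 and -3.04 and -3.77 in TKO_29, and here too TKO_26 overlapped WT. H3c7, Rnu1b6 and Rnu2-10, chosen after their values were seen, were 2.50, 2.09 and 2.64 higher in TKO_26 than in TKO_29. Their TKO_26 arrays did not overlap those of WT, as was so for 65.9% of all tested genes. They were not called between TKO_26 and WT, at differences of 0.60, -0.28 and 0.65. Pxmp4, a peroxisomal membrane protein, was an example of the reverse. It read -2.84 and -2.92 in WT, -5.34 and -4.97 in TKO_26 and -3.23 and -3.39 in TKO_29, and fell 4.82-fold against WT in TKO_26 (-2.27 ± 0.16; adjusted p = 0.00108). The number of genes called between the TKO lines was 0 when any 1 of the WT arrays, of the TKO_29 arrays or TKO_26 replicate 1 was dropped, where limma gave 3032 to 4428 at an unadjusted p under 0.05, and 1705 were called without TKO_26 replicate 2.

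**Figure D5:**
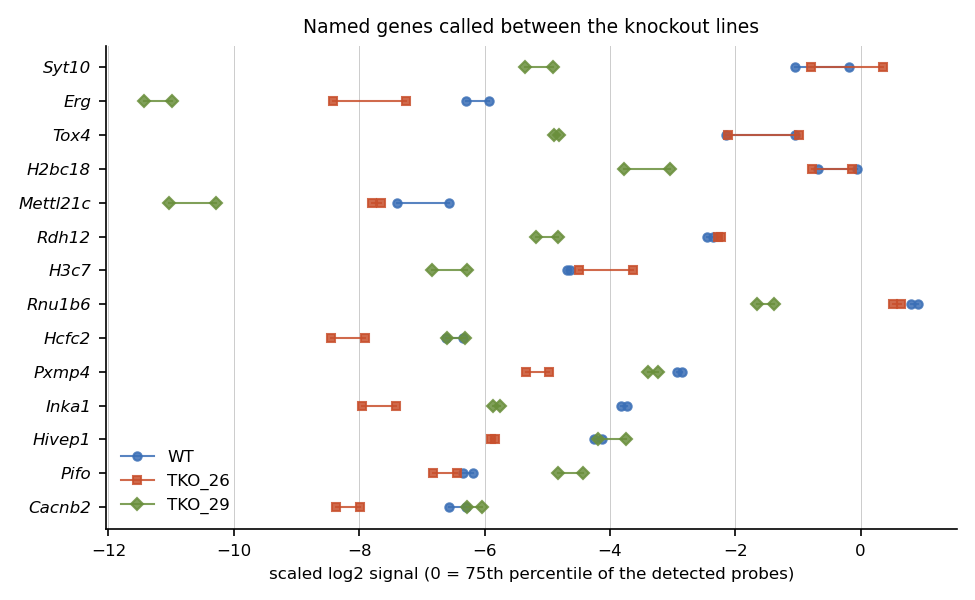
Scaled log2 signal on the arrays of WT (circles), TKO_26 (squares) and TKO_29 (diamonds) for named genes called between the TKO lines, a line joining the arrays of 1 line. From Syt10 to Rnu1b6 the TKO_29 arrays lie lowest (Erg and Mettl21c were not well above background there), and from Hcfc2 down the TKO_26 arrays do.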

How the data were processed

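Per the labels' protocols, Cy3-labelled RNA of each sample went onto an Agilent array with 1 colour. Per the file headers, Agilent Feature Extraction 10.5.1.1 gave each spot an intensity as a background-subtracted processed signal, with flags for saturated, outlying and clearly detected spots. A deposited matrix with log2 values served as an alternative. Its columns followed the log2 signals of their own arrays (r 0.995 to 1.00), and no source used here gives its processing. The column of TKO_29 replicate 1 lay slightly closer to another array (r 0.9963) than to its own (r 0.9962).

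Control and outlier spots were left out, and spots of a probe were averaged. Of 55681 probes 49.4% carried a symbol through RefSeq accessions (GRCm38.p6). Log2 signals were scaled to the 75th percentile of probes well above background on all 6 arrays. Probes entered the test with both WT or both TKO_26 arrays well above background, and the brightest probe stood for its gene. limma 3.58.1 in R 4.3.3 was fitted to 6 arrays in 3 groups (3 residual degrees of freedom), with Benjamini-Hochberg adjustment over 17926 genes. A run on simulated data drew independent normal noise with every probe above background, so it does not bear on dim probes or a noisier array. Bounds set the bright mean against the higher of the dim signal and the array's lowest signal well above background. The number of arrays limits the precision.

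Most genes named in the text came from sets chosen by rule. These were the targeted genes, the 12 strongest differences and the 10 largest bounds each way, and up to 4 of each of 40 lists. Added were up to 6 each way between the TKO lines and genes whose probes disagree. Together with genes chosen after their values were seen they make the 180 named genes counted below, not all of which are described. Clone and predicted names were not named. The comparison and the lists were chosen with earlier results of these data known. Replicate numbers did not pair the arrays (r of deviations 0.25 for WT with TKO_26, -0.26 and -0.28 for the other pairs). Figures used Python 3.11.15, pandas 2.3.3, numpy 2.4.6 and matplotlib 3.10.9.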

Additional observations from a re-analysis of the deposited data

Results flagged for a closer look

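These genes stood out because the change against WT differed between TKO_26 and TKO_29 by the limma test of the difference itself, and both lines share the WT arrays. On the log2 scale TKO_26 minus TKO_29 was 4.91 for Syt10, 3.37 for Erg, 3.30 for Tox4, 2.95 for H2bc18, 2.94 for Mettl21c, 2.75 for Rdh12, 2.64 for Rnu2-10, 2.50 for H3c7, 2.09 for Rnu1b6 and 1.02 for Prl3b1. It was -2.02 for Cacnb2, -2.0 for Pifo, -1.90 for Hivep1, -1.87 for Inka1, -1.84 for Pxmp4 and -1.72 for Hcfc2. The other Tox4 probe, well above background on all 6 arrays, differed the other way, by -0.97. Erg and Mettl21c were not well above background on either TKO_29 array, Cacnb2 and Hcfc2 were on neither TKO_26 array, and Prl3b1, Pifo, Hivep1 and Inka1 on 1 TKO_26 array, so that these differences are not fully measured. The adjusted p-values lay between 0.0287 and 0.0493, and no such call held when WT replicate 1 was left out.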

How the results depend on the processing

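Of 166 named genes called against WT, 104 kept their call under every alternative in which they were tested. A gene that a setting did not test was not counted as lost there. With signal demanded on all 4 arrays only 110 of the 180 named genes were tested. The count of called genes was 1519 with normexp background correction (489 higher, 1030 lower), 1398 with no filter on dim probes (454 and 944), 1496 with signal demanded on all 4 arrays (867 lower), 901 at a 4-fold threshold on the measured difference, bounds not applied (200 and 701) and 5082 with no fold threshold (2255 and 2827). Leaving out 1 array gave 1530 to 3443 called genes, 506 to 1469 higher and 1024 to 1974 lower, and 0 to 1705 between the TKO lines. The count between the TKO lines was also 0 with normexp, with no filter and with the replicate block. Against WT the replicate block left 2411 genes, and as the numbers do not pair the arrays it says nothing on the size of an effect. Calls counted only where the difference or its bound reached 2-fold were 2264, and 517 genes with a symbol rose and 1345 fell without chromosome 8; both settings were chosen after seeing the data. The other alternatives, among them quantile normalisation, the deposited matrix and array weights, kept the counts against WT within 1.5 times. Array weights were equal within a line (0.787 for both TKO_26 arrays), so this setting could not set TKO_26 replicate 1 apart. Single genes changed sign: Rdh12 with normexp (-0.0026); Tet3 (-0.77) and Kdr (-2.84) with the mean over probes; and, with 1 array left out, Hoxb3 (-5.23 to 0.46, the sign turning without WT replicate 1), H2bc18 (-0.40 to 0.23, turning without WT replicate 1 and without TKO_26 replicate 2), Syt10 (-0.18 to 0.97) and Tox4 (-0.52 to 0.61), both turning without WT replicate 2 and without TKO_26 replicate 1, and Kdr (-5.94 to 0.50, turning in all but the settings without WT replicate 1 or without a TKO_29 array). Kdr and Hoxb3 have probes that disagree, and another probe can stand for them there; the cause of the other changes was not tested. The high background of TKO_26 replicate 1 limits the bounds of genes that TKO_26 arrays did not register.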
